A study of Mus musculus with 8 samples.

Results

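Type IIb myonuclei were examined here as the nuclei of mouse gastrocnemius, a calf muscle, whose myosin heavy chain RNA was mostly Myh4. A nucleus was a member when its raw UMIs (tags that let each captured RNA molecule be counted once) of Myh1, Myh2, Myh4 and Myh7 summed to at least 5, made up at least 0.3% of all its UMIs, and were at least 80% Myh4. The rule selected 30718 of 64803 retained nuclei (47.4%), of 65280 deposited. All libraries came from wild-type C57BL/6 mice. Young mice were 3 months old and Old mice 20 months old. Running mice were trained on a treadmill for 2 months from an age of 11 months, and Sedentary mice of the same age were their controls. Each group had 2 libraries: replicate 1 was made with 10x Genomics droplets and replicate 2 with the DNBelab C droplet system (called the second library set), so the replicate number is also the library system. The number of animals behind a library and their sex were not given in the sources used here, and p-values measure only the spread between these libraries.

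Skeletal muscle fibres are multinucleated cells that are classed by the myosin heavy chain they carry. Type I (slow) fibres use Myh7, type IIa fibres Myh2, type IIx fibres Myh1 and type IIb fibres Myh4. Type IIb fibres contract fastest, tire soonest and draw most of their ATP from glycogen and glycolysis, whereas slow and IIa fibres rely on mitochondria. Of the other markers of the class, Mybpc2 is the fast myosin binding protein C, Actn3 the fast-fibre alpha-actinin of the Z-disc, Ampd1 the muscle AMP deaminase and Mylk4 a myosin light chain kinase family member.

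The promoters of the Myh4 and Myh1 genes are shown beside those of Mybpc2 and Mylk4, because Myh4 defines the class, Myh1 defines its nearest neighbour, and the other 2 genes followed Myh4 across classes without being part of the rule. Windows hold the 250 bases before the RefSeq start on GRCm38.p6 and were found for 3 of the 5 marker genes. Capitals mark matches, on either strand, to the E-box CANNTG (MyoD-family sites), the MCAT element CATTCC (bound by the TEAD family), the TATA box TATAAA, the MEF3 element TCAGGTT, and the MEF2 and CArG elements, of which the last is bound by SRF.
Myh4, chr11:67237562-67237811, + strand: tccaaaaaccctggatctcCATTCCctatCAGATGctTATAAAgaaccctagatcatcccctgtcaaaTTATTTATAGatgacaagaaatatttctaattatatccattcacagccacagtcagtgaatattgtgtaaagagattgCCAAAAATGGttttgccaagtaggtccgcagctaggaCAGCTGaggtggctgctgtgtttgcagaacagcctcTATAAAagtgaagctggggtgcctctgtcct
Myh1, chr11:67199852-67200101, + strand: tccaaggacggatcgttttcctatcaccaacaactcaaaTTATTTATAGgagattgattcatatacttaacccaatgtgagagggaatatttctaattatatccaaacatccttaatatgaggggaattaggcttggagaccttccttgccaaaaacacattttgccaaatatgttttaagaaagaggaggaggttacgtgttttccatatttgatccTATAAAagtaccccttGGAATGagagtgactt
Mybpc2, chr7:44524670-44524919, - strand: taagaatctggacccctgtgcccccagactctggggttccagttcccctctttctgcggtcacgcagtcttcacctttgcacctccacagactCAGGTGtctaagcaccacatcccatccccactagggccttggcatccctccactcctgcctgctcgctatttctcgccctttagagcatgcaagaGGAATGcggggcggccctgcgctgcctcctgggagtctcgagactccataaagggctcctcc
Mylk4, chr13:32783965-32784214, - strand: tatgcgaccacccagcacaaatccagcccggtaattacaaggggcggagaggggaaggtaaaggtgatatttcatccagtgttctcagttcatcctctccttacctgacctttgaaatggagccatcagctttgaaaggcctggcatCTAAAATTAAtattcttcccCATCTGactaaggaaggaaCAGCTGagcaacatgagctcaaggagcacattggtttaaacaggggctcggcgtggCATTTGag

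The windows of Myh4 and Myh1 both held a MEF2 match, an MCAT match and a TATAAA match, the last beginning 31 bases before the start in Myh4 and 32 bases before it in Myh1. In both windows a further TATAAA match, on the other strand, lay inside the MEF2 match. The Myh4 window held 2 E-boxes and 1 CArG match, and no match to either was found in the Myh1 window. Mybpc2 had 1 E-box and 1 MCAT match, and Mylk4 had 3 E-boxes and 1 MEF2 match. Among 32851 promoter windows of the same length, 66.2% held an E-box, 12.6% the MCAT letters, 12.4% TATAAA, 3.49% TCAGGTT, 1.69% a MEF2 match and 1.47% a CArG match. TCAGGTT was in none of the 4 windows. A match is a description of letters and not a measured binding site. Myhas, a long noncoding RNA on the opposite strand (chromosome 11, 67211256 to 67237573), begins inside the upstream end of the Myh4 window. The GENCODE record of Myh4 spans 67238029 to 67260446 on the same chromosome.

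The label was checked against the 4 markers that the rule did not use, separately in each library set. In the 10x set, Actn3 was seen in 82.2% of Old members, 94.1% of Young members, 91.4% of Running members and 61.6% of Sedentary members, against between 15.2% and 22.5% of nuclei that carried endothelial markers and were not members. Median depths were 2279 to 3789 UMIs in members and 1216 to 2053 in those endothelial-marked nuclei. Mybpc2 gave the same picture, seen in 3652 of 4058 members in Old and 6921 of 7356 in Young, against 71 of 533 and 36 of 302 of the endothelial-marked nuclei. Ampd1 was seen in 72.6% to 96.6% of members and in 12.9% to 28.7% of the endothelial-marked nuclei. Mylk4 separated them less, since it was seen in 89.6% or more of the members of each 10x library but also in 65.1%, 16.6%, 53.5% and 81.3% of the endothelial-marked nuclei of Old, Young, Running and Sedentary. The other 3 markers set the members apart from endothelial-marked nuclei in the 10x set. They separated members less from Type IIx nuclei (Myh1 at least 80% of the sum). Of those nuclei, 15.4% to 63.1% carried Actn3, 41.2% to 79.6% Ampd1 and 28.1% to 68.1% Mybpc2. Within each 10x library these shares lay below those of the members.

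In the second library set the markers separated the members from other nuclei less, and Actn3 did so least. Actn3 was seen in 42.7% of members and in 49.4% of endothelial-marked nuclei outside the class in Old replicate 2, and in 80.3% and 76.0% in Young replicate 2. Ampd1 was seen in 45.5% and 37.3% in Old, and in 82.4% and 64.6% in Young. Mybpc2 was seen in 52.2% and 51.8%, and in 84.9% and 68.8%. For Mylk4 the values were 78.4% and 73.5%, and 97.5% and 85.4%. Running and Sedentary replicate 2 were not compared in this way. Median depths were 936 UMIs in members and 1195 in the others in Old, and 1673 and 1916 in Young. Every endothelial-marked nucleus of the Young, Running and Sedentary libraries of that set carried Myh4, as did 96.5% in Old, against 48.1% to 79.0% in the 10x set. The 4 myosin genes made up between 1.09% and 2.27% of the UMIs of endothelial-marked nuclei in the second set and between 0.133% and 0.210% in the 10x set. In Running and Sedentary replicate 2, 49 of 58 and 24 of 30 endothelial-marked nuclei met the rule for Type IIb (30 of 113 in Old and 47 of 143 in Young), against 3.48% to 12.2% in the 10x libraries. Members of the second set are therefore described as Myh4-dominant nuclei of libraries in which myosin RNA was present in nearly every nucleus. Values within the 10x set are given below for many of the lists and named genes. Where none is given, list medians and fold changes rest on both sets together.

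**Figure D1:**
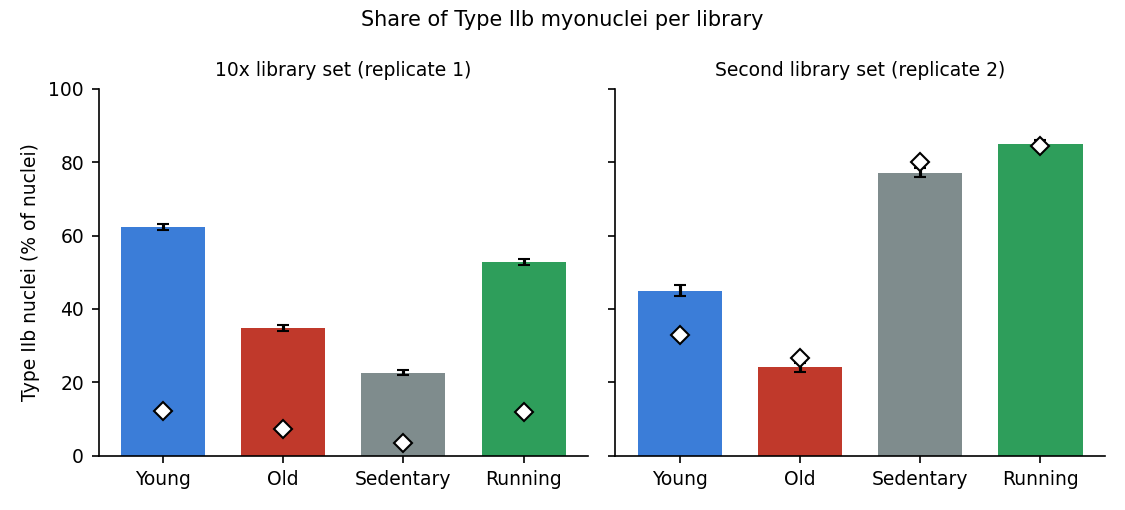
Bars give the percent of retained nuclei that met the Type IIb rule in each of the 8 libraries (y axis, percent; error bars, 95% Wilson intervals), and open diamonds give the same percent among nuclei that carried endothelial markers. In the 10x set the diamonds lie between 3.48% and 12.2%, far under the bars of 22.7% to 62.4%, while in the second set they lie between 26.5% and 84.5%, next to bars of 24.1% to 85.1%.

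Some further facts of the libraries bear on the members. Old replicate 2 stood apart, with 3370 CPM (a gene's UMIs scaled to 1000000 UMIs over the 21107 genes summed) of the repeat-derived transcript Gm10801 in its members against 388 to 681 CPM in the other libraries of its set and 20.4 to 154 CPM in the 10x set. Members of the 10x libraries held 740 to 1036 CPM of Xist and at most 0.645 CPM of the Y-linked genes Ddx3y or Uty. Members of the second set held both Xist (221 to 600 CPM) and Ddx3y (34.5 to 77.4 CPM). The 10x libraries shared between 30 and 46 cell barcodes per pair. Library totals were between 23390969 and 44454427 UMIs in the 10x set and between 4839878 and 9278034 in the second set.

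Within the members, the 10x libraries had Myh4 shares of the myosin UMIs of 97.9% (Old), 99.3% (Young), 97.5% (Running) and 96.4% (Sedentary). In the second set it made up 90.6%, 90.1%, 94.2% and 95.8% in the same order. The rule fixed these shares above 80%, so they are a description. The remainder was mostly Myh1, at 0.655% to 2.24% of myosin UMIs in the 10x set and 2.23% to 6.21% in the second, while Myh7 did not exceed 0.432% in the 10x set. The share of members in which every myosin UMI was Myh4 was highest in Young of the 10x set (84.0%) and between 58.1% and 64.2% in the other 3 libraries of that set. Members held a median of 11 to 26 myosin UMIs in the 10x set and 8 to 24 in the second.

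The number of nuclei near the limits differed between libraries. Over all 8, just inside the Myh4 limit, with a share of 80% to 85%, lay 1848 nuclei, and just outside it, with 75% to 80%, lay 909. Sedentary replicate 1 had 189 of its 2401 members just inside, and under a stricter rule, of at least 10 myosin UMIs with at least 90% Myh4, its share of retained nuclei was 12.1%, against 22.7%. Old replicate 2 had 423 of 1150 members just inside, and its share was 4.59% against 24.1%. Young replicate 2 had 549 of 2030 just inside, and its share was 20.1% against 45.0%. Those just inside made up 1.94% of the 10x members and 14.4% of the second-set members. Members at or above 95% Myh4 were 84.0% of the 10x members and 45.7% of the second. Actn3 stood at 655 CPM in the 401 10x nuclei just inside the limit, at 693 CPM in the 105 just outside it and at 925 CPM in all 10x members. Over all 8 libraries 1446 members had a myosin sum of 5 or 6 UMIs, and 863 nuclei with a sum of 3 or 4 met the rest of the rule.

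**Figure D2:**
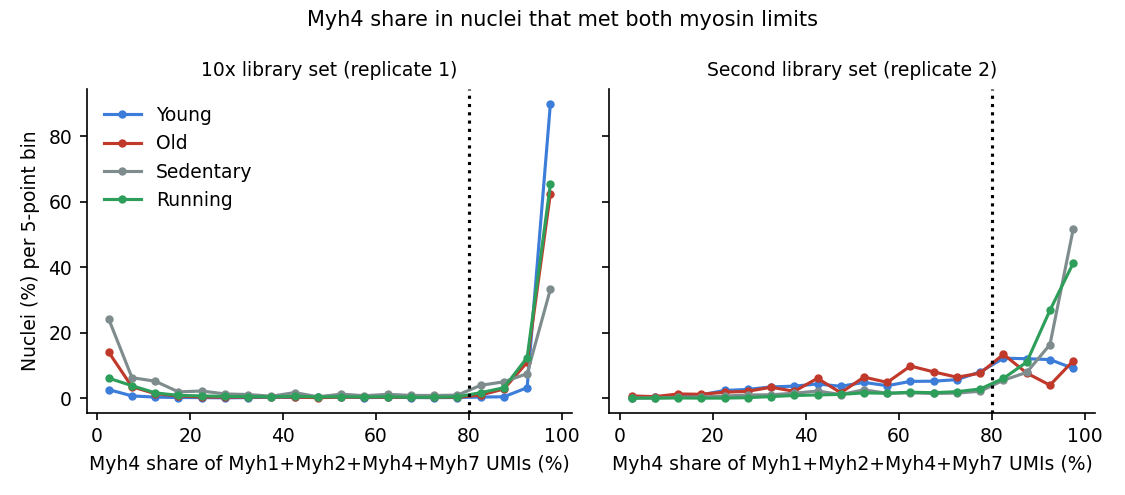
Percent of nuclei (y axis) by the Myh4 share of the 4 myosins (x axis, percent, bins of 5 points) among nuclei that met both limits on the myosin sum, 1 line per library, with a dotted line at the 80% limit. Of these nuclei 62.6% in Old replicate 1 lie in the bin from 95% up, against 11.4% in Old replicate 2, where many lie at intermediate shares.

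The share of Type IIb nuclei was compared between groups to ask whether the fibre class makeup differed with age or running. Among the 10x libraries members made up 34.7% of the retained nuclei of Old (95% Wilson interval 33.9 to 35.6), 62.4% of Young (61.5 to 63.2), 52.8% of Running (51.9 to 53.7) and 22.7% of Sedentary (21.9 to 23.5). Among the second set they made up 24.1% of Old (22.9 to 25.3), 45.0% of Young (43.6 to 46.5), 85.1% of Running (83.9 to 86.1) and 77.2% of Sedentary (75.9 to 78.4). Intervals cover counting error only. Old lay below Young in both sets, by 0.84 on the log2 scale between the 10x libraries and 0.90 between the others, and the Old and Young libraries did not overlap (mean log2 difference -0.87, exact permutation test, two-sided p = 0.33, the smallest that 2 libraries against 2 allow). Without nuclei that carried markers of other cell types, the shares were 57.5% and 24.2% in Old and 89.9% and 45.1% in Young (10x set first). Old and Young then overlapped (mean log2 difference -0.77, exact permutation p = 0.667), while Old stayed below Young within each set.

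Counted among nuclei that met both limits on the myosin sum, which leaves out most other cells of the 10x set, the share was 77.2% in Old and 93.9% in Young of the 10x set and 36.4% and 45.1% in the second. The log2 difference was then -0.30 (exact permutation p = 0.667). Old replicate 1 held 228 IIx, 494 IIa and 122 slow nuclei by the same rule applied to Myh1, Myh2 and Myh7, and Young replicate 1 held 201, 26 and 0. A share of nuclei falls when other nuclei become more numerous as well as when these become fewer, and these cannot be told apart here.

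Running lay above Sedentary by 1.22 on the log2 scale in the 10x set and by 0.14 in the second, a mean difference of 0.68 (exact permutation p = 0.667). Running and Sedentary overlapped, since Sedentary replicate 2 (77.2%) lay above Running replicate 1 (52.8%). Leaving out Sedentary replicate 1 gave -0.20 and leaving out Sedentary replicate 2 gave 1.56. The permutation test and these 2 values take no account of the library set, so that a Running mean over both sets is set against a single Sedentary library, while within each set Running lay above Sedentary. Sedentary replicate 1 held 635 IIx, 619 IIa and 274 slow nuclei, against 731, 131 and 6 in Running replicate 1. After each nucleus was thinned to 1000 UMIs and the rule applied with at least 3 myosin UMIs, the 10x shares became 35.5% for Old, 63.4% for Young, 54.3% for Running and 28.9% for Sedentary, and thinning left out 888, 429, 1074 and 2292 shallower nuclei in the same order.

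The genes that set Type IIb nuclei apart from Type IIx nuclei (Myh1 at least 80% of the sum) were described within the 6 libraries that held at least 20 nuclei of both classes: the 4 of the 10x set and Old and Young of the second, which held only 38 and 23 IIx nuclei. The classes were cut from the same nuclei, so these levels carry no test. Of 4636 genes whose log2 CPM averaged 5 or more in one of the classes, 10.7% were higher in Type IIb in all 6 libraries and 10.5% lower in all 6, and the median difference over all of them was -0.02 on the log2 scale. Within the 10x set alone 22.6% were higher and 29.4% lower in all 4 libraries.

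The 4 markers outside the rule were higher in Type IIb in all 6 libraries. Actn3 stood at 562 CPM in Type IIb and 56.3 CPM in Type IIx in Old replicate 1, at 1177 and 404 CPM in Young replicate 1, at 1024 and 309 CPM in Running replicate 1 and at 428 and 105 CPM in Sedentary replicate 1. In the second set it stood at 903 and 435 CPM in Old and at 1502 and 681 CPM in Young. The gap in Actn3 was thus widest in Old and narrowest in Young within the 10x set, and narrower in both libraries of the second set than in any 10x library. Its median difference was 1.63 on the log2 scale against IIx, 3.68 against IIa (5 libraries) and 3.61 against slow nuclei (2 libraries). Ampd1, which deaminates AMP when ATP turnover is high, differed by 1.58, Mybpc2 by 1.47 and Mylk4 by 0.60 from Type IIx. Mylk4 levels in Type IIb ranged from 3017 CPM in Running to 9229 CPM in Sedentary within the 10x set, so that the IIx level in Sedentary (6176 CPM) lay above the IIb level in Young (3972 CPM).

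**Figure D3:**
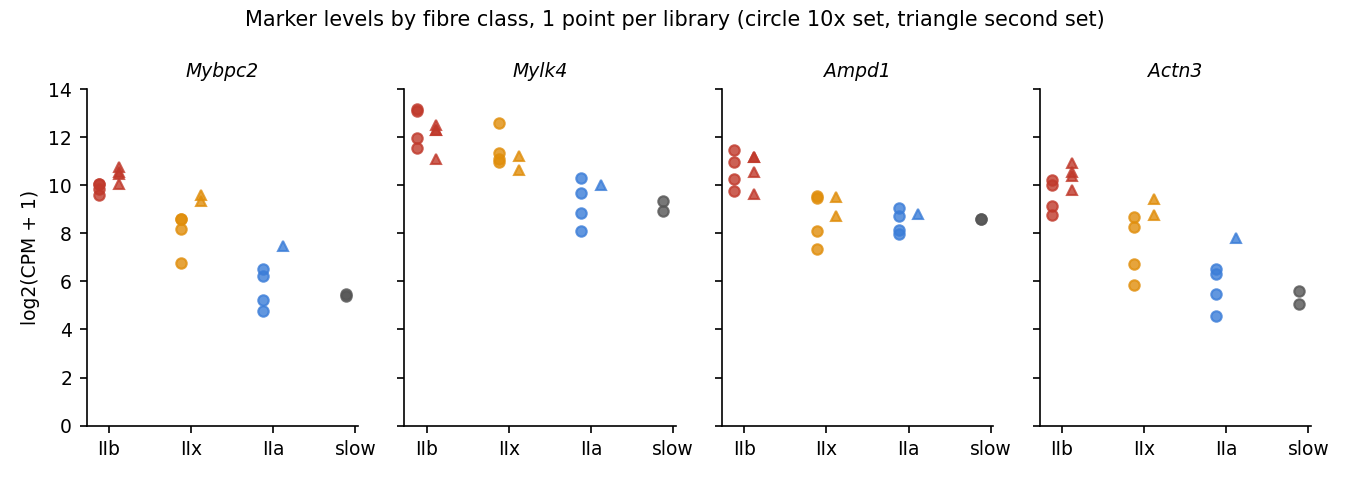
Level of each marker as log2(CPM + 1) (y axis) in nuclei classed IIb, IIx, IIa and slow (x axis), 1 point per library, circles for the 10x set and triangles for the second set. Levels step down from IIb to IIx to IIa for Mybpc2 and Actn3, and the second-set triangles lie above the 10x circles in IIx and IIa for both genes.

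Among the contractile genes of fast fibres, 11 of 19 measured list genes were higher in Type IIb than in Type IIx in all 6 libraries and 0 lower in all 6, against the 10.7% and 10.5% over all genes (list median 0.69). Within the 10x libraries 14 were higher in all 4, against 22.6% over all genes. The list includes the marker Mylk4, so these counts are not separate from the marker result above. Mybph, a myosin binding protein, differed most, by 2.17 on the log2 scale, with 90.8 against 11.9 CPM in Young replicate 1. The members of the list did not all follow. Acta1, the skeletal actin, was lower by 0.49 in the median and higher in 1 of 6 libraries. The fast troponins Tnni2 and Tnnc2, parts of the calcium-sensing complex of the thin filament in both fast classes, differed by -0.05 and 0.16. Of the slow contractile list only 5 of 15 genes reached the level limit. Actn2, the alpha-actinin of all fibres, was lower in Type IIb by 2.98, with 69.8 against 1310 CPM in Young replicate 1, and Mybpc1, the slow myosin binding protein C, by 1.77. Both were lower in all 6 libraries.

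Genes of calcium release and uptake were higher in Type IIb in the median for 17 of 18 measured genes, and 5 of 18 were higher in all 6 libraries and 15 in all 4 of the 10x set (list median 0.46). The shares over all genes were 10.7% and 22.6%. Pvalb, the calcium buffer parvalbumin that speeds relaxation, stood at 468 against 102 CPM in Old replicate 1 and at 1166 against 475 CPM in Young replicate 1, a median difference of 1.35. The calsequestrin Casq1, the main calcium store of the sarcoplasmic reticulum, differed by 0.92, and the junctophilin Jph2, which joins that membrane to the T-tubule, by 1.03. The calcium pump Atp2a1 and the release channel Ryr1 differed less, by 0.32 and 0.51, and neither was higher in all 6 libraries.

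Of 13 measured genes of glycogen metabolism, 10 were higher in Type IIb in the median, 6 in all 6 libraries and 8 in all 4 of the 10x set, and 1 was lower in all 6 (list median 0.54). Over all genes the shares were 10.7%, 22.6% and 10.5% in that order. Pygm, the muscle glycogen phosphorylase, differed by 0.94, and the subunits of its activating kinase differed by 1.32 (Phka1), 0.99 (Phkb) and 0.48 (Phkg1). Pgm1, which passes the released glucose phosphate on, differed by 0.92. The enzymes that build glycogen lay on the other side: the synthase Gys1 was lower by 0.82 in all 6 libraries, and the branching enzyme Gbe1 was lower by 1.22 and higher in 1 of 6. Ppp1r3c, which targets a phosphatase to glycogen, differed by 1.65 but was higher in only 4 of 6 libraries.

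In glycolysis 14 of 17 measured genes were higher in the median, 2 in all 6 libraries and 11 in all 4 of the 10x set, and 1 was lower in all 6, with a list median of 0.22. Over all genes 10.7% were higher and 10.5% lower in all 6, and 22.6% higher in all 4. The largest difference in the list was in Pfkfb3, whose product makes the fructose 2,6-bisphosphate that switches on phosphofructokinase, at 1005 against 67.5 CPM in Old replicate 1 and 1231 against 267 CPM in Young replicate 1 (median difference 2.69). In the second set its Type IIx level was near the floor, at 116 against 19.8 CPM in Old and 73.4 against 0 CPM in Young. Gpd1, which links glycolysis to the glycerol phosphate shuttle, was also higher in all 6 (0.81), and the hexokinase Hk2 was lower in all 6 (-0.35). Ldha, the lactate dehydrogenase subunit that favours lactate, stood at 187 against 99.4 CPM in Old replicate 1 and 276 against 123 CPM in Young replicate 1, and was higher in 4 of 6 libraries (0.72). Ldhb, the subunit that favours pyruvate, was lower in all 6 by 3.03, with 0.928 against 52.0 CPM in Young replicate 1.

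Genes of mitochondrial metabolism lay on the Type IIx side almost without exception. In the respiratory chain 26 of 31 measured genes were lower in Type IIb in all 6 libraries and 0 higher, and the median was lower for every one of the 31 (list median -0.90). In all 4 of the 10x libraries 29 were lower, against 29.4% over all genes (10.5% over all genes for all 6 libraries). Sdhb, a subunit of succinate dehydrogenase, the enzyme stained to tell fibre types apart, stood at 48.6 against 195 CPM in Old replicate 1 and 63.8 against 128 CPM in Young replicate 1, and was lower in 5 of 6 libraries (median difference -1.39). In fatty acid oxidation 15 of 21 measured genes were lower in all 6, 21 in all 4 of the 10x set, and 0 higher (list median -1.27). Cd36, the fatty acid transporter, was lower by 2.82, with 78.3 against 836 CPM in Young replicate 1. Both lists were on the same side against IIa nuclei, with medians of -0.997 and -1.63. Ckmt2, the mitochondrial creatine kinase, was lower by 1.69 in all 6 libraries.

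**Figure D4:**
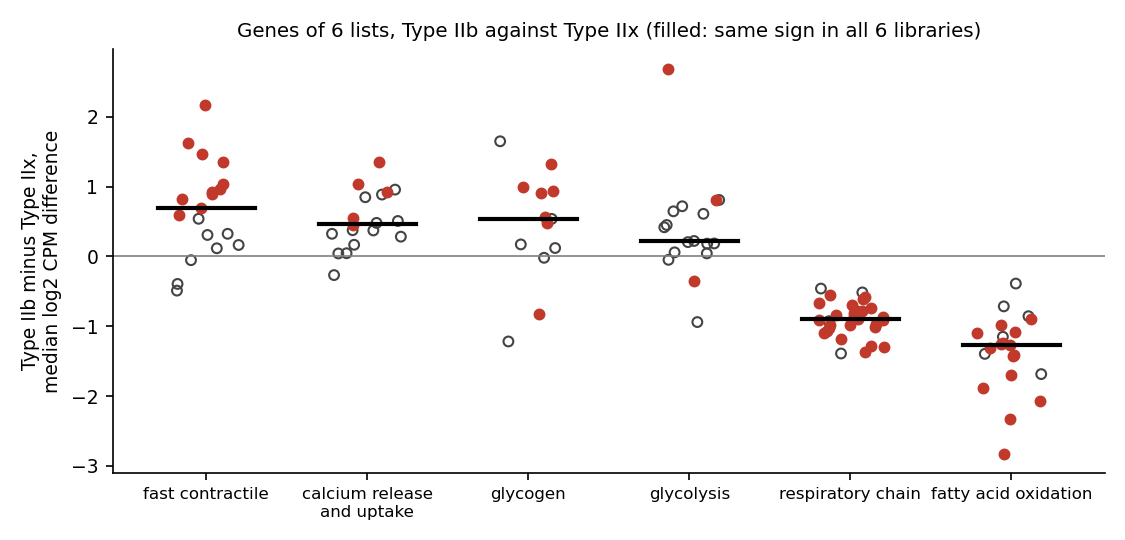
Median difference in log2 CPM between Type IIb and Type IIx nuclei over 6 libraries (y axis) for each measured gene of 6 lists (x axis), with list medians as bars and filled points for genes with the same sign in all 6. Respiratory chain and fatty acid oxidation genes lie below 0 without exception, while most genes of the other 4 lists lie above it.

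Among regulators of fibre type, 3 of 23 measured genes were higher in all 6 libraries and 4 lower. These counts lie near the 10.7% and 10.5% over all genes, so the list as a whole did not stand out. The cofactors Eya4 (1.04) and Eya1 (0.88), transcriptional coactivators of fast fibre programmes, and Sox6 (0.87), a repressor of slow fibre genes, were the 3 that were higher. Sox6 stood at 4916 CPM in Type IIb in Old replicate 1 and 8719 CPM in Young replicate 1. Maf, a large Maf factor, differed by 0.97 and was higher in 5 of 6 libraries. Among those lower in all 6 were the nuclear receptors Ppara (-2.02) and Esrra (49.6 against 162 CPM in Old replicate 1), and the coactivator Ppargc1a (-0.71), all known for oxidative gene programmes. Esrrg, another receptor of that kind, stood at 127 against 1768 CPM in Young replicate 1, a median difference of -2.67, and was lower in 5 of 6 libraries. Mstn, the secreted inhibitor of muscle growth, was higher in Type IIb in all 6 libraries by 2.13. In the few Type IIx nuclei of the second set it was near the floor, at 21.8 against 19.8 CPM in Old and 18.5 against 0 CPM in Young.

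Over all measured genes, those with the largest differences in favour of Type IIb and 1 sign in all 6 libraries included Igfn1 (4.01), the noncoding RNA Gm19299, the potassium channel subunit Kcnab1, the adhesion protein Cadm1, Pld5, the kinase Pim1 and the calcium-sensing receptor Casr. Kcnab1 stood at 201 against 18.8 CPM in Old replicate 1 and at 342 against 139 CPM in Old replicate 2, and Cadm1 at 530 against 29.1 CPM and at 158 against 119 CPM in the same libraries. In Old the gap was narrower in the second set for both genes. Several of these genes had 0 UMIs in the 38 or 23 Type IIx nuclei of the second set (Pim1 in both libraries), so their differences there depend on the pseudocount of 1 CPM. On the Type IIx side were Agbl1 (-3.60), the sodium pump subunit Atp1b1, Ptpn3, Fhl1, Ldhb, Actn2 and the noncoding RNAs Gm12724 and Gm20757. Agbl1, a deglutamylase, stood at 161 against 3117 CPM in Old replicate 1 and 307 against 5799 CPM in Young replicate 1.

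Old and Young were then compared within the Type IIb nuclei, on UMIs summed per library and tested with edgeR over 16978 genes in 1 fit of all 8 libraries with group and library set as terms. At an adjusted p under 0.05, 0 genes were called (0.0%). An unadjusted p under 0.05 was found for 673 genes, a smaller share of those tested than 0.05. DESeq2 called 2 genes, Hba-a1 and Peg3, both lower in Old. The fit of only the 4 Old and Young libraries called 7, and leaving out Sedentary replicate 2 called 1, Peg3. Of all genes tested, 27.2% were higher in Old in both library sets and 28.5% were lower in both.

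Peg3, a paternally expressed zinc finger gene (chromosome 7, 6703892 to 6730431), had the largest fold change of the 10 genes named by smallest p. It stood at 17.7 CPM in Old and 195 CPM in Young of the 10x set and at 14.2 CPM and 113 CPM in the second. The Old libraries lay below the Young libraries in both sets without overlap, with a log2 fold change of -3.73 (SE 0.85, adjusted p = 0.770) and differences of -3.69 and -3.37 within the sets. The other groups spanned a wide range, at 397 CPM in Running and 104 CPM in Sedentary of the 10x set and 21.4 and 18.8 CPM in the second, so that Running and Sedentary of the second set lay near Old. In all retained nuclei together the 10x levels were 101.4 CPM in Old and 178 CPM in Young, a smaller gap than in the members. The lower level in Old was not particular to the members. Type IIx nuclei of the 10x set stood at 22.5 CPM in Old and 104 CPM in Young. In the second set they held 0 CPM in both. Leaving out each library in turn gave log2 fold changes between -4.63 and -2.84.

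Of the Myh4-linked transcripts, Myhas stood at 301 CPM in Old and 888 CPM in Young of the 10x set and at 248 and 530 CPM in the second. Old lay below all other libraries of each set (log2 fold change -1.67, SE 0.37, adjusted p = 0.770). Whether the counting used strand is not given in the sources used here, so reads of Myhas and of genes on its other strand may not be separated. Myh4 itself, which the rule used, stood in the 10x set at 5254 CPM for Old, 7646 for Young, 6154 for Running and 4422 for Sedentary, and at 10979, 17189, 13691 and 12325 CPM in the second.

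Of the 4 other markers, 3 were lower in Old in both sets and none passed the test. Actn3 had a log2 fold change of -1.24 (SE 0.43), Ampd1 of -1.40 (SE 0.61) and Mybpc2 of -0.76 (SE 0.35), each with an adjusted p of 0.770. Ampd1 stood at 1224 CPM in Old and 2810 CPM in Young of the 10x set and at 792 and 1503 CPM in the second, but Sedentary replicate 1, from mice younger than Old, was lower still at 857 CPM. Mylk4 went in opposite directions, with 8706 against 3972 CPM in the 10x set and 2183 against 5034 CPM in the second (log2 fold change -0.12, SE 0.73, adjusted p = 0.963). Without Old replicate 2 its fold change was 0.87, and Fbxo32 and Eda2r, an atrophy ubiquitin ligase and a death receptor family member that were chosen after their values were seen, showed the same split, with differences of 1.21 and 2.20 in the 10x set and -1.55 and -0.16 in the second.

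The remaining genes named by smallest p were Hba-a1, Plet1os, Sh3rf2 and Gm5860, lower in Old, and Gm15991, Platr31, Gm46367 and Gm20275, higher in Old, all at an adjusted p of 0.770. Platr31 stood at 192 CPM in Old against 47.3 to 71.1 CPM in the other 10x libraries, and at 6.70 CPM against 1.52 to 1.84 CPM in the second set. Gm15991 stood at 63.5 CPM against 11.02 to 22.9 CPM and at 5.03 against 0.508 to 1.502 CPM. Both were thus highest in Old in each set, although the second-set levels rest on 2 to 11 UMIs per library, and both are annotated as antisense transcripts, with the same limit on strand. Hba-a1, an alpha globin of red blood cells, stood at 3.64 CPM in Old and 11.95 CPM in Young of the 10x set and at 43.6 and 125 CPM in the second, while the Running and Sedentary libraries lay near Old.

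Most members of the respiratory chain, fast contractile, calcium, glycolysis and glycogen lists had lower levels in Old, and 0 members of any list were called, against the background of 0.0%. Over all tested genes the median log2 fold change was 0.05. Of the respiratory chain genes 33 of 33 were lower in Old, 32 of them in both library sets, with a list median of -0.84 (10x libraries -0.49, second set -1.26). Cox7b stood at 40.9 CPM in Old and 60.2 CPM in Young of the 10x set and at 130 and 293 CPM in the second (log2 fold change -1.16, SE 0.33). Fast contractile genes were lower in 20 of 20, with 18 lower in both sets (median -0.87, 10x libraries -0.73), and calcium genes in 20 of 21 (median -0.81, 10x libraries -0.82). Pvalb, which is in both lists, stood at 468 CPM in Old and 1166 CPM in Young of the 10x set and at 1804 and 3305 CPM in the second (log2 fold change -1.43, SE 0.38). Glycolysis genes were lower in 18 of 19 (median -0.61, 10x libraries -0.37) and glycogen genes in 15 of 16 (median -0.80, 10x libraries -0.54).

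The size of these medians rested on Old replicate 2. Without it the median was -0.43 in the respiratory chain (33 of 33 lower), -0.47 for fast contractile genes (18 of 20), -0.48 for calcium genes (18 of 21), -0.26 for glycolysis (11 of 19) and -0.36 for glycogen (14 of 16). Without Old replicate 1 the same medians were -1.60, -1.74, -1.64, -1.78 and -1.53. Ldha was lower in Old in both sets, with 187 against 276 CPM and 379 against 590 CPM (log2 fold change -0.91, SE 0.37, adjusted p = 0.770). The 8 DNA repair and 8 proteostasis genes that the study had picked on these samples, and that are therefore no independent evidence, were lower in Old in 8 of 8 and 8 of 8 (medians -0.63 and -0.68), with 7 and 8 of them lower in both sets. Without Old replicate 2 their medians were -0.26 and -0.28. In Running 5 of the 8 DNA repair genes and 7 of the 8 proteostasis genes were lower than in Sedentary (medians -0.14 and -0.29), and 7 and 6 of 8 were higher without Running replicate 1 (medians 0.21 and 0.09).

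Regulators of fibre type were lower in Old in 28 of 31, with 23 lower in both sets (median -0.52, 10x libraries -0.42). Among them were Maf, at 858 CPM in Old and 2164 CPM in Young of the 10x set, Mafa and Sox6, at 4916 against 8719 CPM. Slow contractile genes were higher in Old in 10 of 15 and split by set: the list median was 1.81 within the 10x libraries but -0.76 within the others. In the 10x set the slow light chain Myl3 stood at 15.8 CPM in Old members and 0.223 CPM in Young members, and these libraries held 122 and 0 slow nuclei.

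Markers of other cell types differed between Old and Young as well. The 11 fibro-adipogenic markers, of connective tissue progenitors, summed in the 10x members to 1400 CPM for Old, 634 for Young, 755 for Running and 387 for Sedentary, and to 719, 446, 674 and 629 CPM in the second. Fold changes were above 0 for 10 of the 11 between Old and Young, and no member of the list was at 0 UMIs in any library. Nuclei below the myosin limits held 12671 CPM in Old replicate 1 and 11448 CPM in Young replicate 1. The part of these transcripts in the Old results was not tested beyond leaving such nuclei out. Of the members, 67.2% in Old replicate 1 carried at least 3 UMIs of at least 2 of these markers, against 11.7% for Young, 22.4% for Running and 7.25% for Sedentary. The 6 adipocyte markers were all above 0 too (median 2.39), with 34.5 CPM in Old and 20.1 CPM in Young of the 10x set and 420 CPM and 30.5 CPM in the second. Without Old replicate 2 the median of the adipocyte list was 0.53 and 4 of 6 were above 0. Nuclei that carried markers of any of 10 other cell types were then left out, which left 1254 members in Old replicate 1. In that setting 33 of 33 respiratory chain genes and 20 of 20 fast contractile genes were lower in Old (medians -0.78 and -0.85), and 0 genes were called. The step did not remove the other transcripts. Fold changes stayed above 0 for 6 of 6 adipocyte markers (median 2.46), 8 of 8 endothelial markers (0.92) and 7 of 11 fibro-adipogenic markers (0.66).

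Running and Sedentary were compared in the same fit, and 0 of 16978 genes were called (0.0%), with 0 called by DESeq2. An unadjusted p under 0.05 was found for 107 genes, again a smaller share of those tested than 0.05. Leaving out Sedentary replicate 2 called 8, all lower in Running: Ccdc85a, Chrm3, Fam155a, Meis2, Nlgn1, Ryr3, Tnnc1 and Tnnt1. Leaving out any other library called 0. Of all genes 27.4% were higher and 26.7% lower in Running in both sets.

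Ppp1r3c, the glycogen-targeting phosphatase subunit, stood at 209 CPM in Running and 18.8 CPM in Sedentary of the 10x set and at 214 and 99.15 CPM in the second. Running was the highest of the 4 groups in each set, and the log2 fold change was 2.13 (SE 0.56, adjusted p = 1). Meg3, a maternally expressed noncoding RNA, stood at 169 against 37.2 CPM and at 86.45 against 31.8 CPM (log2 fold change 1.75, SE 0.45, adjusted p = 1). Sedentary was the lowest group for Meg3 in each set, while Young (136 CPM) and Old (40.5 CPM) differed in the 10x set and lay close in the second (75.2 and 82.9 CPM). Hes1, a target of Notch signalling, stood at 34.9 against 7.63 CPM and at 40.9 against 20.2 CPM and was highest in Running in both sets (1.52, SE 0.46, adjusted p = 1).

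Other genes with the smallest p and the same sign in both sets were Timm13 (mitochondrial import), Pgam2 (muscle phosphoglycerate mutase), A1bg, Ube2c, Hhatl and Gm15816, higher in Running, and Myom3, an M-band protein of slow and IIa fibres, lower in Running. Pgam2 stood at 208 against 112 CPM in the 10x set and at 874 against 262 CPM in the second (log2 fold change 1.21, SE 0.35, adjusted p = 1). Its level in Sedentary replicate 2 lay far under the 720 and 803 CPM of Old and Young in that set. Myom3 stood at 1.97 against 14.6 CPM and at 27.5 against 56.1 CPM (log2 fold change -2.16, SE 0.65).

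Of the markers, Actn3 was higher in Running in both sets, at 1024 against 428 CPM and at 1942 against 1336 CPM (log2 fold change 0.76, SE 0.43, adjusted p = 1). Mylk4 was lower in both, at 3017 against 9229 CPM and at 4956 against 5822 CPM (-0.87, SE 0.72). Ampd1 was higher in the 10x set (2017 against 857 CPM) and level in the second (2281 against 2279 CPM). Ldha stood at 246 against 126 CPM and at 698 against 447 CPM (0.71, SE 0.37, adjusted p = 1). Bsg, the chaperone of lactate transporters, stood at 162 against 81.5 CPM and at 329 against 158 CPM (0.94, SE 0.31, adjusted p = 1) and was the highest of the 4 groups in each set.

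By lists, 27 of 33 respiratory chain genes were higher in Running, 26 of them in both sets (median 0.50), as were 17 of 20 fast contractile genes (median 0.53), 14 of 19 glycolysis genes (median 0.43) and 11 of 11 genes of creatine and purine nucleotide metabolism (median 0.43), against a median of -0.01 over all genes. Within the 10x libraries the medians of these 4 lists were 0.55, 0.90, 0.30 and 0.67. Acta1 stood at 1849 CPM in Running and 275 CPM in Sedentary of the 10x set and at 4137 and 2312 CPM in the second (log2 fold change 1.56, SE 0.54, adjusted p = 1). These counts changed when Sedentary replicate 1, the shallowest 10x library, or Running replicate 2 was left out. Without Sedentary replicate 1 20 of 33, 9 of 20 and 9 of 19 genes of the first 3 lists were higher, and the medians were 0.10, -0.06 and -0.06. Without Running replicate 2, 24 of 33, 12 of 20 and 9 of 19 were higher (medians 0.34, 0.33 and -0.21). The creatine and purine list kept 7 to 8 of 11 genes higher without either library (medians 0.17 and 0.37). Without Sedentary replicate 2 the medians were 0.77, 1.23 and 0.87. The neuromuscular kinase gene Musk stood at 24.9 against 122 CPM in the 10x set and at 99.8 against 160 CPM in the second (-1.44, SE 0.50, adjusted p = 1).

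Slow contractile genes were lower in Running in 12 of 15, with a list median of -1.22 that was -2.47 within the 10x libraries and 0.87 within the others, and 0.83 without Sedentary replicate 1. Heat shock and immediate early genes, which respond to stress and activity, were higher in Running in 20 of 23, of which 13 were higher in both sets (median 0.39). Without Running replicate 2 the list had 13 higher and 14 lower of 27 then tested (median -0.13), and without Sedentary replicate 1 the same counts. Hspa5, the chaperone of the endoplasmic reticulum, had a log2 fold change of 0.82. In glycogen metabolism, by contrast with Ppp1r3c, 10 of 16 glycogen genes were lower in Running (median -0.10), but 12 of 16 were higher without Running replicate 1 (median 0.30) and 11 of 16 without Sedentary replicate 2 (median 0.24). Fatty acid oxidation genes were split, with 12 higher and 11 lower (median 0.03), and 24 of 31 regulators of fibre type were lower (median -0.16). Without Running replicate 1, 19 of 23 fatty acid oxidation genes and 21 of 31 regulators were higher (medians 0.27 and 0.08), and without Running replicate 2, 17 of 23 fatty acid oxidation genes were lower (median -0.07). Without Sedentary replicate 2, 19 of 31 regulators were higher (median 0.10). No member of these lists was called.

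**Figure D5:**
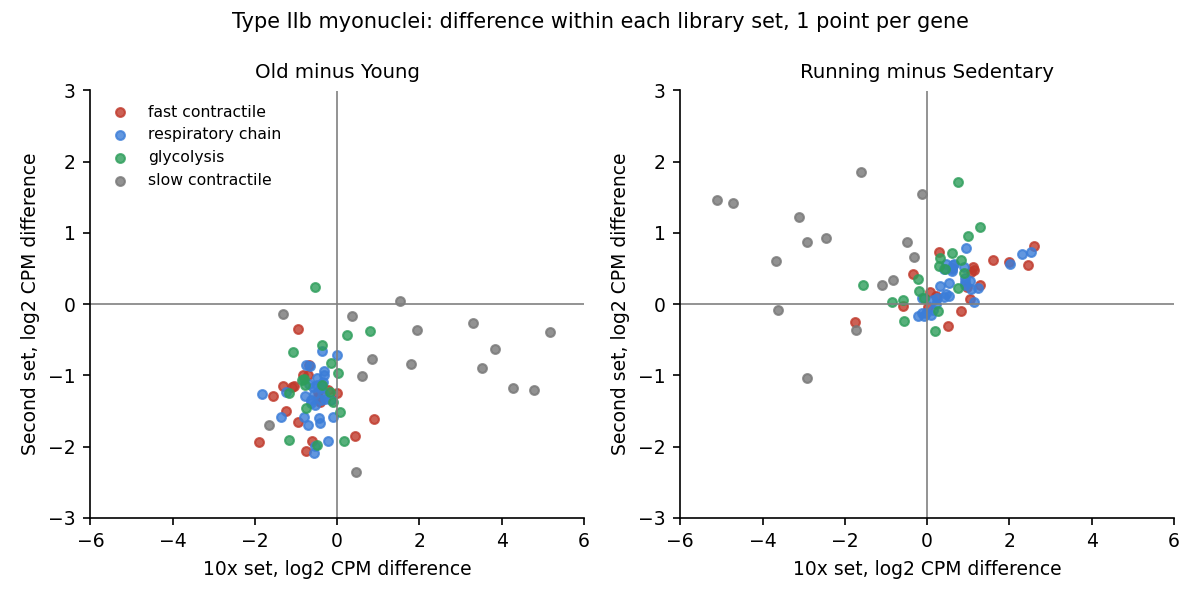
Difference in log2 CPM within the 10x set (x axis) against that within the second set (y axis) for genes of 4 lists in Type IIb nuclei, Old minus Young at left and Running minus Sedentary at right, 1 point per gene and 1 library per group and set. Fast contractile and respiratory chain genes lie mostly in the lower left at left and the upper right at right, while 12 of 15 slow contractile genes have opposite signs in the sets in each comparison.

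A test of whether the group differences of Type IIb and Type IIx nuclei were unequal used the 6 libraries with both classes. It called 1 of 18102 genes for age (0.00552%) and 0 for running (0.0%), where Running and Sedentary had 1 library each. The gene called for age was Il23r, a cytokine receptor subunit, and all 41 of its UMIs in the Type IIx nuclei of Young replicate 1 came from 1 nucleus of 201. Leaving out Young replicate 1, Running replicate 1 or Sedentary replicate 1 called 0, leaving out Old replicate 2 called another gene, Col25a1, and leaving out Young replicate 2 called 2, Il23r and Clnk. With 4-fold differences built into simulated data this test recovered 0.0% of them, so that a difference of that size between the classes was not detectable here.

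Specialised nuclei within the class were counted by at least 3 UMIs from at least 2 genes of a list. Nuclei with neuromuscular junction genes were 1.56% to 4.71% of members across the 8 libraries, and nuclei with myotendinous junction genes 1.30% to 4.11%. After thinning to 500 UMIs per nucleus the shares were 0.218% to 1.10% and 0.125% to 0.640%. For the neuromuscular list after thinning, Old lay above Young in the 10x set (0.370% against 0.218%, 15 and 16 nuclei). In the second set they lay level (0.696% against 0.690%, 8 and 14 nuclei). For the myotendinous list Old lay below Young in the 10x set (0.1725% against 0.3263%, 7 and 24 nuclei). It also did so in the second (0.4348% against 0.4926%, 5 and 10 nuclei). Such small counts allow no order between the groups. Nuclei with Runx1 and other genes of denervated fibres made up 0.0% to 0.520% of members after thinning. That is 0 to 17 nuclei per library and likewise allows no order between the groups.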

How the data were processed

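Nuclei of 8 gastrocnemius libraries were analysed from the UMI counts per gene and nucleus that the authors deposited, made per the file headers with Cell Ranger 6.1.2 for the 10x set and PISA 0.12 for the second set, both against mm10. Nuclei were retained when their gene number lay above 200 and below 6000 and mitochondrial UMIs stayed below 6%. Of 21207 genes present in all 8 files, 12 encoded on the mitochondrial genome and 88 for ribosomal proteins were dropped. Raw UMIs of members were summed per library (at least 20 nuclei). Group and library set were the terms of an edgeR 4.0.16 quasi-likelihood fit (R 4.3.3), with Benjamini-Hochberg adjustment over all tested genes and a threshold of 0.05. The 4 myosin genes of the rule were fitted but not counted among the tested genes. CPM scales a gene's UMIs to 1000000, and log2 levels used a pseudocount of 1 CPM. Wilson intervals cover counting error only.

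The members, gene lists and tests were chosen with earlier results of these data known. Genes named were the markers and Ldha, the 10 with the smallest p per comparison among those with an average log2 CPM of 4 or more and the same sign in both sets, the list member with the smallest p, and for levels the 8 most extreme on each side and each list's most extreme gene. Other list members in the text were chosen after their values were seen. Nuclei carrying other cell type markers had at least 3 UMIs from at least 2 genes of a list. Doublet scores (Scrublet, scanpy 1.11.5) marked under 0.5% of nuclei in 5 libraries, so no doublets were removed, and leaving out the highest 6% of scores was an alternative. The others were DESeq2 1.42.0, its size factors, no low-count filter, no library set term, only the 4 libraries compared, a stricter rule, thinned nuclei and each library left out. A rule requiring at least 2 UMIs of the 4 other markers was added after seeing the data. On simulated data with 200 genes differing 4-fold, the age comparison recovered 24% and the running comparison 38%, and of 2-fold differences 0.5% and 0%. GENCODE vM21 (GRCm38) had a record for 20693 of 21107 genes. Some genes that this rule names are not reported here.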

Additional observations from a re-analysis of the deposited data

Results flagged for a closer look

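One result stood out by a test of the difference itself: the Old minus Young difference of Il23r, the gene of a cytokine receptor subunit on chromosome 6 (67422932 to 67491855), was larger in Type IIb than in Type IIx nuclei by 7.19 on the log2 scale (SE 1.48, edgeR adjusted p = 0.0205). Its Type IIb sums held 2 UMIs in Old and 4 in Young of the 10x set and 35 and 12 in the second. Its Type IIx sums held 1 UMI in Old and 41 in Young of the 10x set, the 41 in 1 nucleus, and 0 in both libraries of the second. Without Young replicate 1 no gene was called.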

How the results depend on the processing

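For Old against Young, DESeq2 called 2 genes and the 4 libraries alone called 7 (1 residual degree of freedom), against 0. Leaving out 1 library called 0 to 1 gene, the 1 without Sedentary replicate 2, and for Running against Sedentary 0 to 8, the 8 without Sedentary replicate 2. The test of unequal differences in Type IIb and Type IIx called 0 for age without nuclei that carried other markers and 0 to 2 when 1 library was left out; for running it could not be fitted without Running or Sedentary replicate 1. The log2 share difference Old against Young was -0.30 among nuclei that met the myosin limits, -1.53 under the stricter rule and -1.14 to -0.61 with 1 library left out. That for Running was -0.20 to 1.56, negative without Sedentary replicate 1, with no term for the set. The Old fold change of Mylk4 was 0.16 without the library set term and -1.83 to 0.87 with 1 library left out (above 0 without Old replicate 2 or Young replicate 2). The Running fold change of Ampd1 was -0.43 to 1.70 and that of Mybpc2 -0.13 to 0.41, negative for both without Sedentary replicate 1 or Running replicate 2. The cause of these was not tested. Of all other alternatives, 58 counts or shares and 979 single-gene values kept their direction and their side of the threshold. These counts are a weak check. The genes named by smallest p were chosen for the same sign in both sets, which favours a kept direction. Staying uncalled was likely in any case, since simulated 2-fold differences were recovered at 0.5% for age and 0% for running. The library set, which coincides with the replicate number, was a block in the main fit, and without that block both group comparisons still called 0 genes. Depth limits the second set, with medians of 921 to 1673 UMIs per member.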
